A study of Mus musculus with 8 samples.

Results

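Cytosolic ribosomal protein genes encode the protein subunits of the ribosome of the cytoplasm, and they were chosen here by symbol: every protein-coding gene of the deposited table named Rpl or Rps with a number, with or without a final a, x or y, together with Rplp0, Rplp1, Rplp2 and Rpsa. This gave 76 of the 23386 genes in the table, 46 of the large subunit and 30 of the small subunit, on 19 chromosomes. Kidney messenger RNA had been sequenced from 4 wild-type (WT) and 4 knockout (KO) mice of 49 weeks on a C57BL/6J background, each animal giving 1 library from its whole left kidney. The KO mice were Ctrp1-/-, and their WT littermates carried no deleted allele. Ctrp1, listed under the symbol C1qtnf1, encodes a secreted protein of the C1q and TNF related family. The coding part of its last exon had been removed in 129S5/Sv embryonic stem cells, so every cell of a KO animal lacks it, and the allele had been backcrossed before heterozygous parents were intercrossed. The comparison asks how kidney transcripts differ without this protein.

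A ribosome has a small subunit, which reads the messenger RNA, and a large subunit, which joins amino acids and holds the exit tunnel. Each subunit needs its proteins in about equal numbers, and cells make them together from many unlinked genes. Messenger RNAs of these genes begin with a run of pyrimidines at their 5′ end, the terminal oligopyrimidine (TOP) tract, through which mTORC1 and the RNA-binding protein Larp1 control their translation and stability. When assembly of the ribosome fails, free Rpl5 and Rpl11 bind Mdm2 and stabilise p53. In kidney the tubule epithelium makes up most of the tissue, so whole-organ values are weighted towards tubule cells.

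Each library held between 15027400 and 19256378 counted reads, of which the 76 genes took between 1.67% and 1.90%, and the 13 mitochondrially encoded genes between 7.33% and 8.83%. C1qtnf1 itself was at 3.86, 2.74, 3.19 and 4.76 in WT and 0.189, 0.576, 0.228 and 0.312 in KO, in FPKM (fragments counted per unit of gene length and of library depth) divided by 1 median-ratio factor per library, the unit of all levels below. It was among the genes past an adjusted p of 0.05 (log2 fold change -2.32, SE 0.18, adjusted p = 0.000767), which matches the labels, although reads outside the deleted stretch can still count for it. Proximal tubule markers, which define the bulk of the kidney cortex, were all detected and summed to between 4482 and 5257, and leukocyte markers summed to between 58.1 and 107.

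No cytosolic ribosomal protein gene passed an adjusted p of 0.05 between KO and WT, where 7 of the 14030 genes tested did (0.0499%), but nearly all of them lay slightly lower in KO. In 71 of the 76 the log2 fold change of KO over WT was below 0, against 50.4% of all genes tested. The median over the 76 was -0.12 and the range -0.71 to 0.12, while the median over all genes tested was -0.0012. In 35 of the 76 (46.1%) every KO library was lower than every WT library, against 4.28% of all genes tested, and in none was every KO library higher, against 4.34%. At an unadjusted p under 0.05, 37 were lower and 0 higher, against 8.25% and 7.18% of all genes tested. At an adjusted p under 0.1 the count was still 0, against 0.0713%, and the lowest adjusted p among the 76 was 0.116 (limma with Benjamini-Hochberg adjustment over all genes tested). All 76 passed the filter on low values, a mean of at least 0.5. With voom on the recovered reads 0 of the 76 passed as well, and 36 were lower at an unadjusted p under 0.05. The share of all genes lower under voom is not given, so this count has no background beside it. The genes share their libraries and are not independent observations, so these counts describe 8 kidneys.

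Both subunits shared this shift. Of the large subunit genes, 43 of 46 lay below 0, 22 had groups that did not overlap, and the median log2 fold change was -0.10. Of the small subunit genes, 28 of 30 lay below 0, 13 had groups that did not overlap, and the median was -0.12. Beside these counts, 50.4% of all genes tested lay below 0 and 4.28% did not overlap in the lower direction. Summed over the 76 genes, the share of counted reads was 1.86%, 1.89%, 1.90% and 1.81% in the WT libraries and 1.67%, 1.67%, 1.77% and 1.77% in the KO libraries. The groups did not overlap, and the KO mean of 1.72% ± 0.0566 (SD, n = 4) was 92.2% of the WT mean of 1.87% ± 0.0418 (SD, n = 4), and all means ± SD below are over the same 4 libraries of a group. Because whole organs were sequenced, fewer cells of a type rich in these transcripts and less of the RNA in each cell cannot be told apart.

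Library by library, the shift was uneven within KO. The median deviation of the 76 genes from their own mean over the 8 libraries, on the log2 scale, was 0.074, 0.067, 0.080 and 0.025 in the WT libraries and -0.052, -0.14, -0.034 and 0.0044 in the KO libraries. KO replicate 2 was lowest, with 1 of the 76 genes above its own mean, and KO replicate 4 lay at the mean, with 41 above. In the WT libraries 56, 60, 70 and 57 genes were above their own mean. Without KO replicate 2 the median log2 fold change was -0.090, 64 genes lay below 0 (50.1% of all genes tested), and in 34 the groups did not overlap (6.35% of all genes tested).

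**Figure D1:**
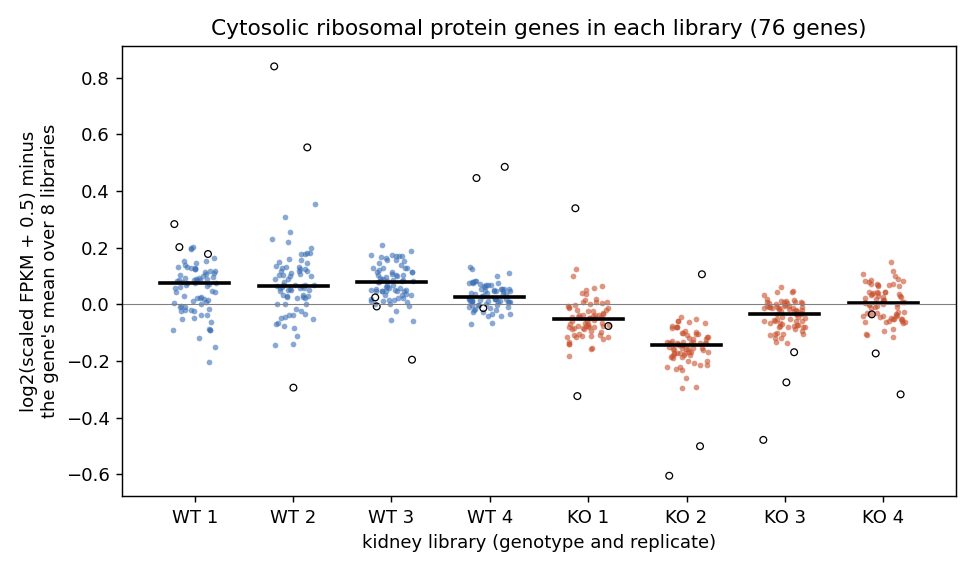
Deviation of each of the 76 cytosolic ribosomal protein genes from its own mean over the 8 libraries, in log2(scaled FPKM + 0.5), with 1 point per gene and library and a black line at the median of the library. Open points are the 3 genes with at least 45% of their exon bases inside another gene. The 4 WT medians lie between 0.025 and 0.080, KO replicate 4 lies at 0.0044 and KO replicate 2 lies lowest at -0.14.

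The log2 fold changes varied with the base composition of the genes. Over all genes with a known GC content, the rank correlation of a gene's deviation with its GC content was 0.48, 0.41, -0.25 and 0.30 in the WT libraries and -0.40, -0.075, -0.12 and -0.37 in the KO libraries, so GC-rich genes tended to read higher in 3 of the 4 WT libraries. Among the 76 genes, log2 fold change and GC content had a rank correlation of -0.48 (n = 76 genes from the same 8 libraries), close to the -0.46 over all genes. In the 25 genes lowest in GC content the median log2 fold change was -0.057, with 5 not overlapping. In the next 25 it was -0.12 with 15 not overlapping, and in the 26 highest in GC content -0.17 with 15 not overlapping and all 26 below 0. Of all genes tested, 4.28% did not overlap in the lower direction, and the share among all genes of like GC content is not given.

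After the trends of GC content and gene length were removed within each library, the rank correlation among the 76 was 0.023 and their median was -0.11. The trends were fitted over all genes, which had a similar correlation before, so a correlation near 0 follows from the removal. In that form 72 of the 76 lay below 0 (51.3% of all genes tested), 39 were lower at an unadjusted p under 0.05 (6.28% of all genes tested), and 32 did not overlap (3.63% of all genes tested). With the GC trend alone removed the median was -0.10. The scaling mattered more: after quantile normalization, which forces all libraries to one distribution of values, the median was -0.055, 58 lay below 0 (51% of all genes tested), 26 were lower at an unadjusted p under 0.05 (7.83%), and 20 did not overlap (4.04%). Other genes in the same range of levels, the 1666 genes between 37.9 and 499 (percentiles 5 and 95 of the 76), had a median of -0.037, which was -0.0028 after quantile normalization. As scaled, 1031 of these 1666 genes lay below 0 (61.9%) and 293 were lower at an unadjusted p under 0.05. In the lower direction 8.70% of them did not overlap.

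**Figure D2:**
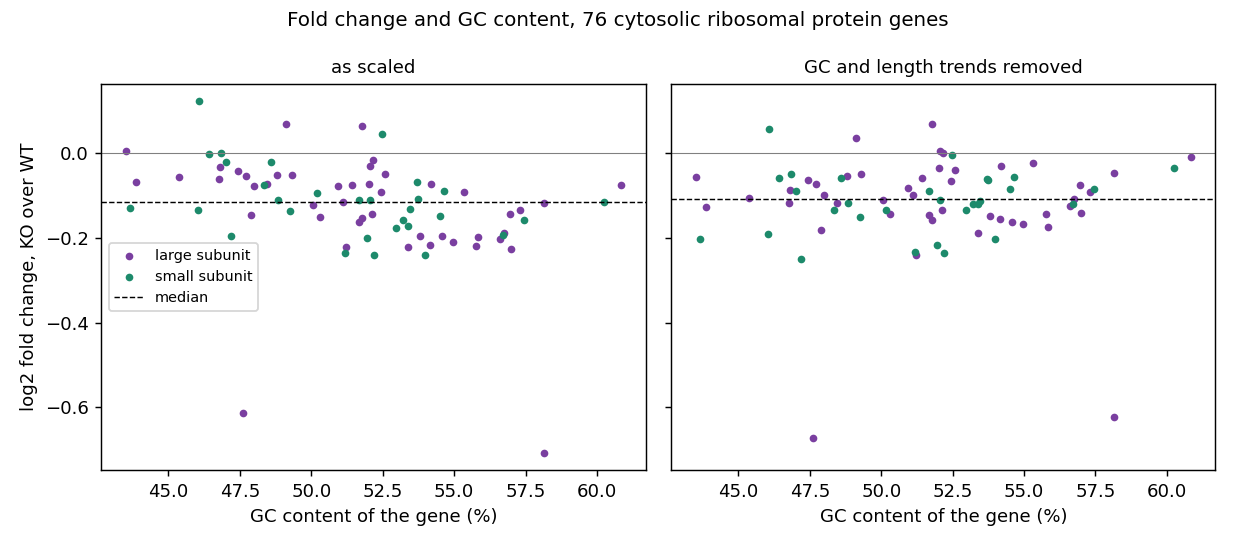
Log2 fold change of KO over WT against GC content for the 76 genes, as scaled (left) and after removal of GC and length trends in each library (right), with 1 point per gene coloured by subunit and a dashed line at the median. The rank correlation with GC content is -0.48 on the left and 0.023 on the right, where a value near 0 follows from the removal. The median moves from -0.12 to -0.11.

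In level, these were among the more abundant transcripts, with a median of 236 over the 76 genes and 63 of them above 100. Highest was Rps27, a small subunit protein with a zinc finger, at 636 to 752 in WT and 671 to 744 in KO. Next came Rplp1, an acidic protein of the stalk, at 666 to 727 and 617 to 671, and Rps2, near the entry of the messenger RNA channel, at 669.9 to 753 and 577 to 637. The order of these leading genes does not stand apart from the spread, since their ranges over the 8 libraries overlap. Rpl10, which joins the large subunit late in its assembly, followed at 520.1 to 555 and 435 to 512, below the other leading genes in every library.

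The order also depends on the gene length used for FPKM. Level and the length in the table had a rank correlation of -0.61 over the 76 genes. Rps15a, of the small subunit, was at rank 73 of 76 with a mean of 25.4. Its length is 5130 bases in the table, and its principal annotated transcript has 640 bases. Per length of that transcript its level would be 204, rank 64 of 76. By the same measure Rpl41, the shortest protein of the ribosome, would lead at 755, ahead of Rps2 at 720 and Rplp1 at 663, with Rps27 at 518. Reads can also be shared: in the median gene 61.7% of the 50-base words of its principal annotated transcript occur in another gene, on either strand. Those other genes include pseudogenes by name and coding genes, and the labels do not say how the authors counted such reads. The 25 genes with under 50% shared words had a median log2 fold change of -0.11, with 24 below 0 (50.4% of all genes tested) and 12 not overlapping (4.28%).

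**Figure D3:**
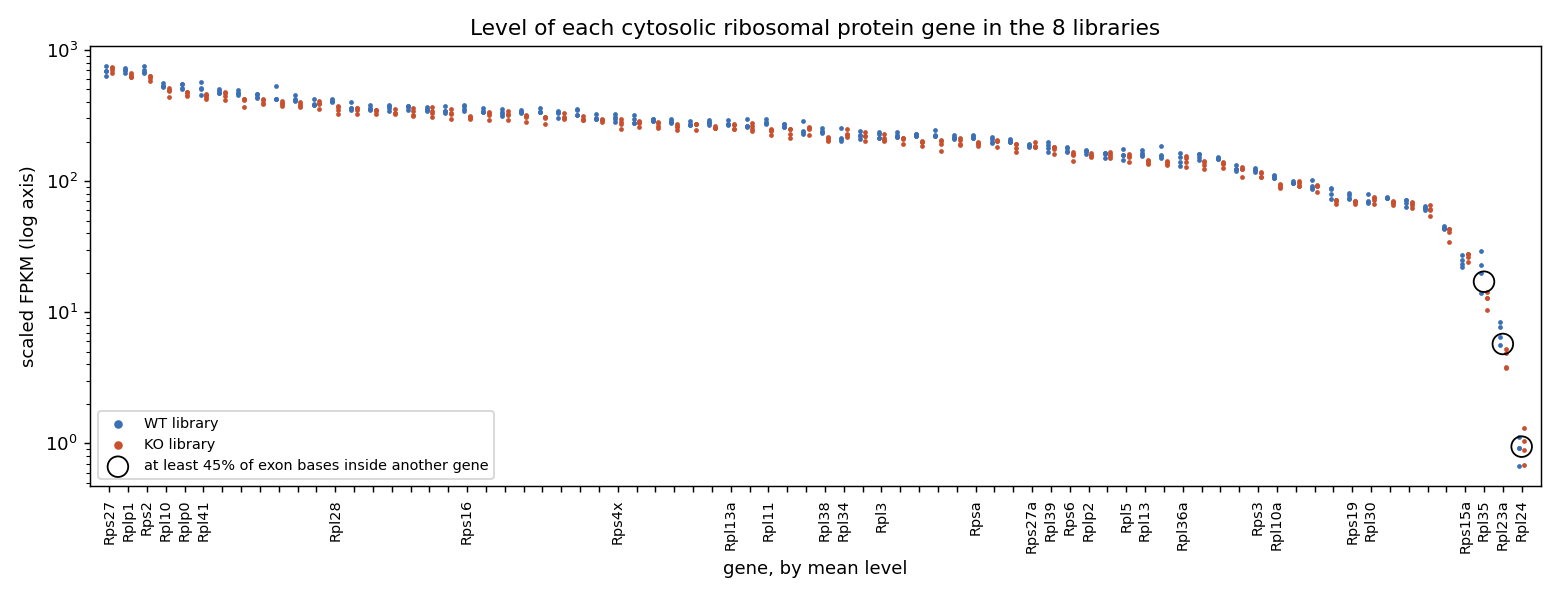
Scaled FPKM of the 76 genes in the 4 WT and 4 KO libraries, ordered by mean level on a log axis, with 1 point per library and names under genes described in the text. Open circles mark the 3 genes with at least 45% of exon bases inside another gene, which are also the 3 lowest, while the other 73 genes have means between 25.4 and 701.

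Among proteins of the large subunit, groups did not overlap in Rpl10a, Rpl11, Rpl13, Rpl38 and Rpl28, among others. Rpl10a, a protein at the L1 stalk where spent transfer RNA leaves (chr17:28328471-28331032, mm10), was at 105, 111, 106 and 109 in WT and 95.2, 88.6, 90.8 and 94 in KO. All 4 KO libraries were lower than all WT libraries, and KO was 85.3% of WT (log2 fold change -0.23, SE 0.044, adjusted p = 0.116), the smallest p of the 76. With GC and length trends removed its log2 fold change was -0.14.

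Rpl13 (chr8:123102350-123105244) was at 172, 164, 157 and 155 in WT and 136, 135, 142 and 144 in KO, with every KO library lower (log2 fold change -0.22, SE 0.05, adjusted p = 0.155). Rpl28 (chr7:4792874-4794562) was at 404, 421, 403 and 408 in WT and 374, 324, 350.4 and 367 in KO, a difference of similar size and again with no overlap (log2 fold change -0.21, SE 0.055, adjusted p = 0.173). Within KO, replicate 2 was the lowest for Rpl28 and replicate 1 the highest. Rpl38, which in mouse embryos is needed for translation of a set of Hox messenger RNAs, was at 236, 254, 239.7 and 233 in WT and 212, 203, 205 and 218 in KO. The groups did not overlap (log2 fold change -0.20, SE 0.048, adjusted p = 0.159), and Rpl38 was the one gene of the 76 within 10 Mb of C1qtnf1, 3.76 Mb away on chromosome 11 at chr11:114668524-114672331. Whether that stretch still carries 129S5/Sv sequence in the KO animals was not tested.

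The stalk proteins Rplp0, Rplp1 and Rplp2 form the arm of the large subunit that recruits elongation factors. Rplp0, its base, was at 546, 548, 515 and 502 in WT and 456, 444, 474 and 478 in KO, and all KO libraries were lower (log2 fold change -0.19, SE 0.052, adjusted p = 0.180). Rplp1 was at 727, 700.3, 705 and 666 in WT and 621, 617, 641 and 671 in KO, and KO replicate 4 overlapped WT replicate 4 (log2 fold change -0.14, SE 0.052, adjusted p = 0.270). Rplp2 was at 174, 169, 168 and 160.4 in WT and 156, 152, 159 and 164 in KO, with overlap as well and a smaller difference (log2 fold change -0.091, SE 0.046, adjusted p = 0.369). The 3 stalk genes thus shared a direction and differed in whether their groups separated.

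Rpl5 and Rpl11, which travel with 5S RNA and can bind Mdm2, did not show the same separation. Rpl11 (chr4:136028265-136053428) was at 281, 295, 275 and 272 in WT and 247, 226, 241 and 249.8 in KO, every KO library lower (log2 fold change -0.22, SE 0.051, adjusted p = 0.155). Rpl5 (chr5:107900502-107909005) was at 145, 157, 174 and 159 in WT and 154, 139, 154 and 159 in KO, with groups that overlapped widely (log2 fold change -0.068, SE 0.066, adjusted p = 0.644); the difference between the genes was not tested. In the list of Mdm2 and p53 response genes, 0 of 11 tested passed an adjusted p of 0.05, 6 lay below 0, and the median log2 fold change was -0.039, between -0.068 without WT replicate 2 and -0.0089 without WT replicate 4. Its genes of smallest p were Ccng1 and Bax. Ccng1, a p53 target, was at 40.2 ± 2.45 in WT and 47.1 ± 2.59 in KO, with every KO library higher (log2 fold change 0.22, SE 0.06, adjusted p = 0.173). Bax, which promotes apoptosis, was at 45.2 ± 3.55 in WT and 40.4 ± 0.852 in KO, with overlap (log2 fold change -0.16, SE 0.06, adjusted p = 0.267).

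Values of Rpl3, Rpl13a and Rpl41, also of the large subunit, overlapped between groups. Rpl3, next to the site of peptide bond formation, was at 223 ± 12.6 in WT and 212 ± 11 in KO (adjusted p = 0.562). Rpl13a, a common reference gene in quantitative PCR, was at 275 ± 11.2 in WT and 258 ± 13.4 in KO (adjusted p = 0.437). Rpl41 was at 512, 565, 455 and 499 in WT and 450.3, 419.9, 436 and 462 in KO, where WT replicate 3 lay inside the KO range (log2 fold change -0.20, SE 0.069, adjusted p = 0.243).

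Among proteins of the small subunit, Rps16, whose tail reaches the transfer RNA at the decoding site, had the smallest p. Rps16 (chr7:28350652-28352696) was at 373, 382, 341 and 352 in WT and 299, 303, 315 and 309 in KO, KO being 84.6% of WT with no overlap (log2 fold change -0.24, SE 0.051, adjusted p = 0.139). Removal of GC and length trends left its log2 fold change at -0.24. Rpsa, also known as the laminin receptor, was at 223, 221, 212 and 211 in WT and 191, 186, 193 and 199 in KO, again with every KO library lower (log2 fold change -0.17, SE 0.045, adjusted p = 0.170). Rps2 was at 753, 703, 669.9 and 678 in WT and 577, 628, 609 and 637 in KO, without overlap (log2 fold change -0.19, SE 0.058, adjusted p = 0.202).

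Rps6, the substrate of the S6 kinases downstream of mTORC1, was at 169.7, 181, 167 and 179.5 in WT and 159.5, 141, 157 and 167 in KO, where KO replicate 4 lay level with the lower WT libraries (log2 fold change -0.16, SE 0.06, adjusted p = 0.266). Rps19, the gene most often mutated in Diamond-Blackfan anaemia, was at 81, 78.1, 74.5 and 73.4 in WT and 67.2, 68.9, 69.9 and 70.2 in KO, with no overlap (log2 fold change -0.15, SE 0.047, adjusted p = 0.215). Rps3, which lines the entry of the messenger RNA channel and also takes part in DNA repair, was at 121, 125, 117 and 121 in WT and 108, 108, 116 and 118 in KO, and a single KO library reached the WT range (log2 fold change -0.11, SE 0.048, adjusted p = 0.312). Rps27a, made as a fusion with ubiquitin, was at 187, 181, 192 and 185 in WT and 182, 181, 185 and 197 in KO, and the means were nearly equal (log2 fold change -0.00084, SE 0.047, adjusted p = 0.996). Its sign turned to positive without scaling, at 0.0064, and after quantile normalization, at 0.053.

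Lower still in KO by fold were Rpl35 and Rpl23a, but both are among the 3 genes with at least 45% of their exon bases inside another gene, which were also the 3 lowest in level. Rpl23a, near the exit of the peptide tunnel, was at 6.44, 8.36, 5.64 and 7.72 in WT and 5.22, 3.77, 3.83 and 4.85 in KO, without overlap (log2 fold change -0.61, SE 0.14, adjusted p = 0.151). It had 273 reads over the WT libraries and 175 over the KO libraries, a depth-adjusted ratio of 0.620 with an exact 95% interval of 0.510 to 0.753 that covers counting error only. Of its exon bases 62.3% lie inside Snord42b or Tlcd1, and Tlcd1 was at 17.3 ± 1.47 in WT and 16.1 ± 0.941 in KO. Exon overlap was counted on either strand, and Rpl23a lies on the minus strand while Tlcd1 lies on the plus strand. Rpl35, also at the tunnel exit, was at 19.8, 29.4, 14.1 and 22.9 in WT and 12.8, 10.5, 14.4 and 12.9 in KO, and WT replicate 3 lay inside the KO range (log2 fold change -0.71, SE 0.19, adjusted p = 0.174). Rpl35 had 1350 reads in WT and 811 in KO, a ratio of 0.581 (0.532 to 0.635), and 66.2% of its exon bases lie inside Arpc5l or Wdr38. Arpc5l was at 11.7 ± 0.559 in WT and 12.1 ± 0.702 in KO. Here too the strands differ, with Rpl35 on the minus strand and Arpc5l and Wdr38 on the plus strand.

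Rpl24, which bridges the subunits, was at 1.12, 0.668, 0.924 and 0.918 in WT and 1.31, 1.04, 0.683 and 0.897 in KO, the lowest level of the 76, with 47.0% of its exon bases inside Gm28037. It rested on 40 reads in WT and 45 in KO, a ratio of 1.09 (0.695 to 1.71), so a difference of the size seen in the other genes was not detectable at this depth. Where fewer than 45% of exon bases were shared, no gene had a mean below 25.4. The part of the overlapping annotation in these 3 levels was not tested. Without the 3 genes the median log2 fold change was -0.12.

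A log2 fold change above 0 was found in 5 genes, in none of them with an unadjusted p under 0.05 in limma. Rps15a was at 22, 23.5, 27.2 and 24.9 in WT and 27.7, 24.3, 26.5 and 27.6 in KO (log2 fold change 0.12, SE 0.072, adjusted p = 0.437), WT replicates 1 and 2 being the lowest. Rpl34, of the large subunit, was at 211, 202, 252 and 213 in WT and 229, 216, 223 and 248 in KO (log2 fold change 0.063, SE 0.075, adjusted p = 0.712), with WT replicate 3 the highest of the 8 libraries. Rps27 was at 692, 636, 752 and 684 in WT and 729.7, 671, 704 and 744 in KO (log2 fold change 0.045, SE 0.064, adjusted p = 0.762), and its value was -0.0042 with GC and length trends removed. Rpl30 was at 70.9, 68.6, 79.1 and 68.6 in WT and 71.2, 66.7, 74.3 and 76 in KO (log2 fold change 0.0054, SE 0.063, adjusted p = 0.976), and its sign turned to -0.056 with those trends removed and to -0.073 with the GC trend alone removed. The fifth was Rpl24.

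On the X chromosome, where 4 of the genes lie, values overlapped except in Rpl10. Rpl10 was at 531, 529.6, 555 and 520.1 in WT and 487, 435, 512 and 497 in KO, with every KO library lower (log2 fold change -0.15, SE 0.06, adjusted p = 0.286). Rps4x, whose human counterpart escapes X inactivation, was at 302 ± 17.3 in WT and 275 ± 19.4 in KO (adjusted p = 0.352). Rpl39, at the tunnel exit, was at 183 ± 13.1 in WT and 174 ± 10.3 in KO (adjusted p = 0.616), and Rpl36a was at 147 ± 14.8 in WT and 143 ± 11.9 in KO (adjusted p = 0.872).

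**Figure D4:**
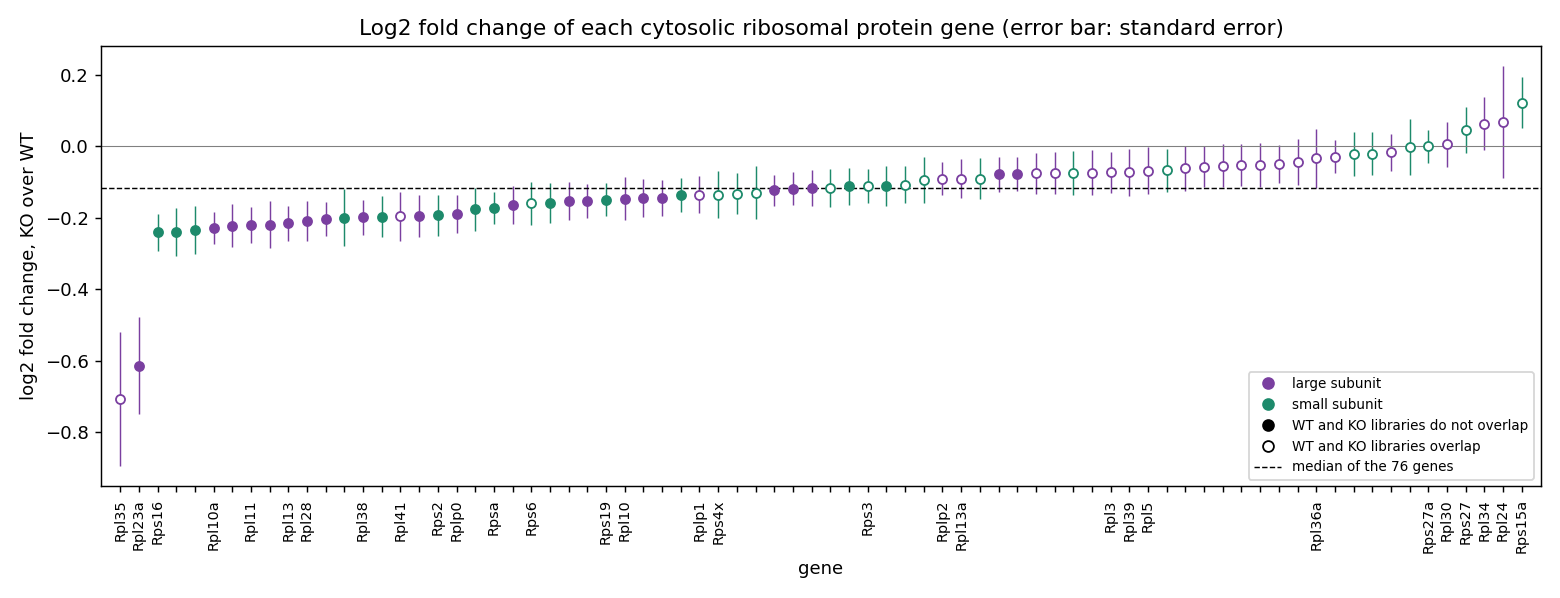
Log2 fold change of KO over WT for each of the 76 genes, ordered from lowest to highest, with standard errors as bars, coloured by subunit, and names under genes described in the text. Filled points are the 35 genes whose WT and KO libraries do not overlap, all of them below 0, and the dashed line is the median of -0.12.

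The pyrimidine run at the 5′ end is a feature the naming rule did not use, and its presence around the annotated start was read from RefSeq promoter sequences (GRCm38.p6, the build equivalent to mm10), in which 56 of the 76 genes were matched with 66 starts. A run of at least 8 C or T letters on the strand of the gene, within the 15 bases before and the 15 bases from the start, was found at 26 of the 66 starts (39.4%), against 12.0% of 21263 starts of protein-coding genes. The windows below are shown for a selection of genes with a log2 fold change below or above 0, 5′ to 3′, with the longest run of C and T in capitals (the first if tied) and positions on GRCm38.p6. The first 4 are lower genes with such a run, the next 2 are lower genes without one, and the last 4 windows belong to genes with a log2 fold change above 0, Rpl34 having 2 annotated starts.
Rpl13, chr8:123102335-123102364, plus strand: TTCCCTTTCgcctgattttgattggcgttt
Rpl38, chr11:114668565-114668594, plus strand: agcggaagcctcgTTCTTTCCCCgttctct
Rpl28, chr7:4792950-4792979, plus strand: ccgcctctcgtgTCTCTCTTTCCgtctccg
Rpl35, chr2:39005117-39005146, minus strand: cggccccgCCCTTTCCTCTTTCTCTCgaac
Rpl11, chr4:136053379-136053408, minus strand: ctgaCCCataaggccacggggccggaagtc
Rps16, chr7:28350674-28350703, plus strand: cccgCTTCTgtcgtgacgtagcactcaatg
Rps15a, chr7:118116133-118116162, minus strand: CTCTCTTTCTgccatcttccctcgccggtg
Rps27, chr3:90213634-90213663, minus strand: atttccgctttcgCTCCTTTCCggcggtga
Rpl34, chr3:130730323-130730352, minus strand: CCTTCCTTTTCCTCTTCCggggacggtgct
Rpl34, chr3:130730384-130730413, minus strand: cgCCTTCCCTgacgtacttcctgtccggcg

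In this selection, genes on either side of 0 carried a long run. Not shown are Rpl24, also above 0, with a longest run of 2, and Rpl10a and Rpsa, lower in KO, with longest runs of 7 and 5. None of the genes above 0 had an unadjusted p under 0.05 in limma. The 25 genes with a run of at least 8 had a median log2 fold change of -0.11 with 11 not overlapping, and the 31 matched genes without one had -0.12 with 15 not overlapping. Of all genes tested, 4.28% did not overlap in the lower direction. A run that starts a few bases from the annotated position still counts here, a run cut by the edge of the window is counted only inside it, and a window without one says only that these letters are not at that annotated start. In the 300 bases around each start, 250 before and 50 from it, the letters CCGGAAG, a core bound by ETS factors, were present on either strand at 36.4% of the starts, against 11.6% of all protein-coding starts. The letters AAGATGGC, the core of the YY1 motif, were present at 10.6% against 3.05%, and TATAAA at 9.09% against 12.6%. The first and the second of these motifs share the letters AAG at their ends, so 1 stretch can hold both, and a match is a description of the sequence only.

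Further proteins of the cytosolic ribosome have symbols outside the rule, and the 3 tested here had a log2 fold change below 0. Fau, the precursor of a small subunit protein fused to a ubiquitin-like domain, was at 348, 343, 283 and 326 in WT and 270.3, 251, 279 and 276 in KO, with no overlap (log2 fold change -0.27, SE 0.071, adjusted p = 0.173). Gnb2l1, known as Rack1, a scaffold on the head of the small subunit, was at 77.9 ± 1.03 in WT and 71.5 ± 4.14 in KO, with no overlap (log2 fold change -0.12, SE 0.051, adjusted p = 0.291). Rps3a1, of the small subunit, was at 379 ± 26.3 in WT and 364 ± 23.6 in KO, with overlap (log2 fold change -0.059, SE 0.067, adjusted p = 0.698). None passed an adjusted p of 0.05, and the median log2 fold change of the 3 was -0.12.

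Paralogues and pseudogenes lay mostly above 0. Of 7 tested genes listed as paralogues outside the rule, 6 lay above 0 and 0 passed an unadjusted p of 0.05. Their median was 0.084, which was 0.039 without KO replicate 3 and 0.052 without WT replicate 4. The 7 include Rpl34-ps1, a pseudogene by its symbol, which was among those above 0 (log2 fold change 0.13, SE 0.12). Rpl22l1, a paralogue of Rpl22, was at 71.5 ± 6.62 in WT and 79.8 ± 7.57 in KO (log2 fold change 0.16, SE 0.082, adjusted p = 0.381), and Rps27l, a p53 target, was at 196 ± 9.05 in WT and 200.1 ± 17.1 in KO (log2 fold change 0.025, SE 0.067, adjusted p = 0.886). Of 148 pseudogenes named after these genes 47 passed the filter on low values, of which 34 lay above 0. Their median was 0.15, or 0.097 without WT replicate 2. At an unadjusted p under 0.05, 5 were higher and 0 lower, against 7.18% and 8.25% of all genes tested. Groups overlapped in all 47, while 4.34% of all genes tested did not overlap in the higher direction and 4.28% in the lower. The share of counted reads of the 148 pseudogenes was 0.0108% in WT and 0.0119% in KO, small beside that of the 76 genes. By library this share overlapped, at 0.00983% to 0.0120% in WT and 0.0104% to 0.0126% in KO. Reads that fit both a pseudogene and its parent cannot be assigned with certainty, so these values depend on how such reads were counted.

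Other genes of the translation apparatus were nearer to 0 by median. The 20 other genes whose messenger RNAs carry a TOP tract had a median of -0.045, with 15 below 0 and 1 not overlapping in the lower direction. This median depended on single libraries: it was 0.0092 without KO replicate 2, -0.082 without KO replicate 4, -0.072 without WT replicate 1 and -0.024 without WT replicate 3. Eef2, the elongation factor that moves the ribosome along, was at 837, 838, 729 and 818 in WT and 713, 687, 731 and 716 in KO, where WT replicate 3 lay inside the KO range (log2 fold change -0.18, SE 0.059, adjusted p = 0.231). Eif3f, a subunit of initiation factor eIF3, was at 42.3 ± 1.62 in WT and 38.3 ± 1.43 in KO, without overlap (log2 fold change -0.14, SE 0.049, adjusted p = 0.235). Eef1a1, which delivers transfer RNA, was at 2507 ± 138 in WT and 2384 ± 145 in KO, with overlap (adjusted p = 0.641).

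For 47 initiation and elongation factors the median log2 fold change was 0.028, with 5 lower and 9 higher at an unadjusted p under 0.05. It lay between 0.0071 without KO replicate 1 and 0.035 without KO replicate 2. Eif3k was at 114 ± 3.97 in WT and 100.1 ± 4.97 in KO, with every KO library lower (log2 fold change -0.19, SE 0.051, adjusted p = 0.182). Gspt1, the release factor eRF3, was at 25.5 ± 1.07 in WT and 28.8 ± 0.936 in KO, with every KO library higher (log2 fold change 0.17, SE 0.049, adjusted p = 0.189). For 79 genes of ribosome assembly the median was 0.0045, with 4 lower and 5 higher at an unadjusted p under 0.05. Its sign changed with single libraries, from -0.019 without KO replicate 1 to 0.0081 without KO replicate 2. Polr1c, a subunit of RNA polymerases I and III, was at 30.8 ± 1.93 in WT and 26 ± 0.622 in KO (log2 fold change -0.24, SE 0.055, adjusted p = 0.155). Ddx52, an RNA helicase of small subunit assembly, was at 11.3 ± 0.933 in WT and 13.8 ± 1.17 in KO (log2 fold change 0.27, SE 0.077, adjusted p = 0.191).

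In the list on control of translation by mTORC1, 39 genes had a median of -0.051, which was -0.022 without WT replicate 1, -0.031 without WT replicate 2, and -0.026 with the GC trend removed. At an unadjusted p under 0.05, 5 were lower and 3 higher, against 8.25% and 7.18% of all genes tested. Groups did not overlap in 1 in the lower direction and 2 in the higher, against 4.28% and 4.34%. Myc, a transcription factor that raises ribosomal protein and ribosomal RNA synthesis, was at 3.49, 3.83, 4.24 and 2.84 in WT and 2, 2.61, 2.39 and 2.39 in KO. Every KO library was lower (log2 fold change -0.52, SE 0.12, adjusted p = 0.151). Mtor was at 37.6 ± 6.56 in WT and 45.3 ± 2.87 in KO, with overlap (log2 fold change 0.28, SE 0.11, adjusted p = 0.284). Larp1 was at 29.7 ± 2.10 in WT and 28.3 ± 0.826 in KO, also with overlap (log2 fold change -0.068, SE 0.059, adjusted p = 0.606). Larp1b was at 29.9 ± 2.70 in WT and 34.3 ± 1.05 in KO, with every KO library higher (log2 fold change 0.20, SE 0.067, adjusted p = 0.229). The S6 kinases Rps6kb1 and Rps6kb2 were at 5.57 ± 0.473 in WT and 5.83 ± 0.761 in KO, and at 13.2 ± 0.834 in WT and 11.5 ± 0.984 in KO, with adjusted p = 0.817 and 0.270. No gene of these 4 lists passed an adjusted p of 0.05.

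Other large complexes were set beside the cytosolic ribosome. For the 76 nuclear genes of the mitochondrial ribosome the median was -0.039, with 53 below 0 and 0 not overlapping in either direction, and for the 37 tested proteasome subunits it was 0.018, with 2 not overlapping in the lower direction and 3 in the higher. With a library left out, the first median lay between -0.072 (without WT replicate 3) and -0.021 (without KO replicate 2), and the second between -0.0050 (without KO replicate 1) and 0.036 (without KO replicate 2). The difference between these lists and the 76 genes was not tested, and the lists differ in level. The 13 mitochondrially encoded genes had a median of 0.13, with 1 below 0, 5 higher at an unadjusted p under 0.05 and 4 not overlapping in the higher direction. The median was 0.019 with the GC trend removed, 0.044 with GC and length trends removed, and 0.20 without KO replicate 2. Single genes were further from 0: mt-Nd3 was at 35 ± 6.78 in WT and 60.7 ± 10.4 in KO (log2 fold change 0.79, SE 0.15, adjusted p = 0.113) and mt-Atp6 at 110.2 ± 12.5 in WT and 167 ± 21.6 in KO (log2 fold change 0.60, SE 0.10, adjusted p = 0.108), and with GC and length trends removed their log2 fold changes were 0.65 and 0.48.

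**Figure D5:**
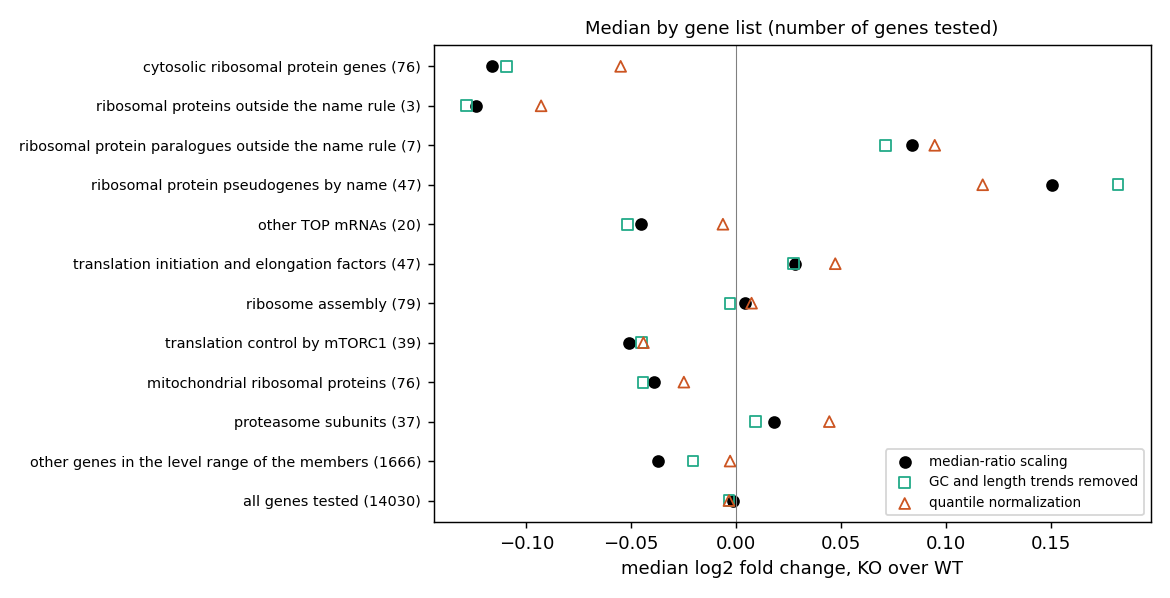
Median log2 fold change of KO over WT for each gene list, with the number of genes tested in brackets, as scaled (filled circles), with GC and length trends removed (squares) and after quantile normalization (triangles). The cytosolic ribosomal protein genes lie at -0.12, -0.11 and -0.055, the pseudogenes named after them at 0.15, 0.18 and 0.12, and all genes tested near 0 in each form.

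Markers of the cell types of the kidney were given by list beside the shift. Of 14 leukocyte markers with a value, 11 were tested, the others being below the filter on low values. They had 2 genes below 0, a median of 0.092 and 0 not overlapping, and the summed level of all 14 was 58.1 to 76.5 in WT and 67.8 to 107 in KO. Proximal tubule markers had a median of -0.059 with 3 of 10 not overlapping in the lower direction and 1 in the higher, and a summed level of 4626 to 5257 in WT and 4482 to 4791 in KO. Lowest by median were the markers of the distal convoluted tubule, at -0.24 with 3 of 3 below 0, and of fibroblasts and smooth muscle, at -0.17 with 5 of 5 below 0. The summed level of the former was 318 to 342 in WT libraries against 252 to 350.2 in KO libraries. For the latter it was 33.1 to 50.4 against 30.1 to 47.1. Intercalated cell markers had a median of -0.121, beside -0.117 for the 76 genes. Of these markers 3 of 4 lay below 0, and 2 were lower at an unadjusted p under 0.05 (8.25% of all genes tested). Podocyte markers had a median of -0.067 with 4 of 5 below 0. Those of the thick ascending limb (0.16), the principal cell of the collecting duct (0.066), endothelium (0.086) and red blood cells (0.24) each had 1 gene below 0. Groups overlapped in every gene tested of these 8 lists. Collecting duct principal cell markers summed to 209 to 273 in WT and 171 to 557 in KO, and red blood cell genes to 760 to 1275 in WT and 562 to 3369 in KO. The part of cell composition in the lower level of the ribosomal protein genes was not tested.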

How the data were processed

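Kidney messenger RNA of 4 WT and 4 KO mice, 1 library each, was analysed from the table the authors deposited. It holds FPKM for 23386 genes, per the file headers, with positions on build mm10 per the submitters' processing notes. These notes name CASAVA, STAR 2.5, HTSeq 0.6.1 and DESeq2 with no roles, and strandedness and annotation release are not given in the sources used here. Trizol extraction, DNase digestion and poly-T selection preceded library preparation, per the labels' protocols. FPKM multiplied by gene length gave whole multiples of 1 step in each library for 100% of values within 0.01, which gave the reads per gene quoted here and each library's depth of 15027400 to 19256378.

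For scaling, the FPKM of a library were divided by its median-ratio factor (0.975 to 1.03). Genes with a mean of at least 0.5 were kept (14030), and log2(value + 0.5) was modelled in R 4.3.3 with limma 3.58.1 (eBayes with trend, genotype as the only term, two-sided). The threshold was an adjusted p of 0.05 (Benjamini-Hochberg, over all genes tested). Fold changes are on that log2 scale, which understates those of low genes, and values are means ± SD over 4 libraries. The fit was tested on simulated data. GC content, exon overlap and 50-base words came from GENCODE M21, covering 98.8% of the table and all 76 genes. GC and length trends were splines of 4 degrees of freedom fitted in each library. Alternatives were other pseudocounts, filters, scalings, limma settings and voom on the recovered reads, and leaving out each library. The labels do not say which libraries were prepared together, so no batch could be examined.

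The genes and the comparison lists were chosen with earlier results of these data known. Described with values were the 10 of the 76 lower in KO and the 5 higher with the smallest p, the 4 highest and 4 lowest in level, those with a role given in the text, those within 10 Mb of C1qtnf1 on its chromosome or on chromosome X, the 2 of smallest p in comparison lists, and genes needed to read a result. Some results that fall under these rules are not reported here.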

Additional observations from a re-analysis of the deposited data

How the results depend on the processing

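No gene of the 76 passed an adjusted p of 0.05 under any setting run, and with all 8 libraries, scaled as described, none passed 0.1. With all 8 libraries unscaled, Rpl10a had an adjusted p of 0.0971 in limma. The lowest adjusted p of a described gene was 0.0659, without WT replicate 3. Quantile normalization moved the median log2 fold change from -0.12 to -0.055 and the genes with groups that did not overlap from 35 to 20, and the cause was not tested. With each library left out in turn, the median lay between -0.14 and -0.090, the genes below 0 between 64 and 73, those lower at an unadjusted p under 0.05 between 27 and 39, and those not overlapping between 34 and 45. Groups separate more easily with a library left out. Without KO replicate 2, 6.35% of all genes tested did not overlap in the lower direction, against 4.28% with all 8. The shares over all genes are not given for the other libraries left out, so these counts have no background beside them. Adding Fau, Rps3a1 and Gnb2l1 gave a median of -0.12. Restrictions to genes outside strong exon overlap (-0.12) or with few shared 50-base words (-0.11) were chosen after seeing the data. Signs turned for Rps27a unscaled (0.0064) and after quantile normalization (0.053), for Rps27 with GC and length trends removed (-0.0042), and for Rpl30 with both trends (-0.056) or GC alone (-0.073) removed. With a library left out, ranges crossed 0 for Rpl30 (-0.020 to 0.053), Rpl24 (-0.034 to 0.17), Rps27a (-0.028 to 0.015) and Rpl36a (-0.091 to 0.023). Of 629 values of the 30 described genes under other settings, 18 turned sign, in 5 genes. For the lists, removal of the GC trend moved the median on mTORC1 control to -0.026 and of the mitochondrially encoded genes to 0.019, and a library left out moved the former between -0.054 and -0.022. The planned count-model tests on the recovered reads were not run, while voom on those reads was. No paired analysis was possible because the animals of the groups share no number. Depth limits Rpl24, with 40 and 45 reads.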
